A study of Mus musculus with 3 samples.

Results

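A set of 10 mouse genes whose products are used to recognise macrophages was taken by symbol from the gene and transcript tables of each library: Adgre1, Adgre4, Adgre5, Cd68, Lyz1, Lyz2, Mpeg1, Sirpa, Cd200r1 and Cd84. All 10 were found once each among 55536 annotated genes. Of the 10, 8 reached the minimum of 1 TPM (transcript abundance relative to the library's total, a level per transcript length) in every library, as did 9245 protein-coding genes in all. Adgre4 and Lyz1 did not reach it and are given by their values without a test, except under alternatives that lower this minimum.

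The products divide by role. Lysozyme is the secreted enzyme that cleaves bacterial cell walls, and the mouse carries it as a pair of neighbouring genes, Lyz2 of myeloid cells and Lyz1 of the Paneth cells of the gut. CD68 is a heavily glycosylated protein of late endosomes and lysosomes in the LAMP family, and Mpeg1 encodes perforin-2, a pore-forming protein of phagocytes. F4/80, the product of Adgre1, is the classic surface marker of mouse tissue macrophages. It belongs with Adgre4 and Adgre5 (CD97) to the adhesion G protein-coupled receptors with EGF-like domains. SIRP-alpha (Sirpa) and the CD200 receptor (Cd200r1) are inhibitory receptors that bind CD47 and CD200, and CD84 is a SLAM-family receptor that binds itself. The mRNA of lysozyme in mature macrophages is generally regarded as very stable. RNA kept on chromatin holds transcripts still being made or processed, so it is enriched in new transcripts compared with RNA of whole cells.

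The libraries were 3 separately numbered biological replicates of 1 condition. They were total RNA after ribosomal RNA depletion, from the chromatin fraction of bone marrow-derived macrophages (BMDM) of strain C57BL/6J. The cells were given Lipid A, the active part of bacterial endotoxin, at 100 ng/ml for 12 h, were washed out for 12 h, and were given Lipid A at 100 ng/ml again for 120 min. RNA input differed, at 1 µg, 250 ng and 500 ng for replicates 1, 2 and 3. The labels list age and sex as not collected and give 1 donor entry for all 3 libraries. They do not say whether the cells came from separate animals, so the spread may be technical. No unstimulated sample, other time or whole-cell RNA was analysed here, so a level can be set against other genes of the same library but no response to Lipid A can be read. Alignment-based counts per library numbered 10293545, 17820066 and 17548564.

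The cells' identity was checked with other markers. Of 15 further macrophage genes, 14 reached 1 TPM in every library, led by the scavenger receptor gene Msr1 at 267 ± 79.7 TPM (SD, n = 3) and the Fc receptor subunit gene Fcer1g at 203 ± 22.2. The exception was the fractalkine receptor gene Cx3cr1 at 0.01. Levels here and in what follows are alignment-based unless the read-based tables are named. None of 8 neutrophil, 7 dendritic, 5 fibroblast or 5 Paneth cell markers reached 1 TPM in every library. Summed TPM ranged from 0.3 to 1.27 over the neutrophil list, from 2.06 to 2.55 over the dendritic list and from 0.59 to 2.03 over the fibroblast list, against 837 to 1187 over the macrophage list. Of 5 B cell genes only Cd22 reached 1 TPM in every library, and of 6 T cell genes Cd5 and Cd28 did, while the defining T cell genes Cd3e and Cd2 were at 0 in all 3 libraries. In the authors' read-based tables, the dendritic markers Zbtb46 and Ccr9 (2 of 7) reached 1 TPM in every library, at 2.21 ± 0.59 and 3.31 ± 0.53, and Cx3cr1 stood at 1.88 ± 0.18. There 1 of 6 T cell genes reached it, Cd3d at 14.1 ± 0.73, and 0 of 8 neutrophil, 5 fibroblast and 5 Paneth cell markers did.

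The levels of the 10 genes spread from near the top of the tested genes to the limit of detection. In bulk RNA a low level from few expressing cells and one from little RNA per cell cannot be told apart. Against the median tested gene of the same library, at 9.95, 13.9 and 12.1 TPM, 6 of the 8 tested members were higher and 2 were lower (limma with Benjamini-Hochberg adjustment, adjusted p under 0.05). Over all tested genes 40.6% were called higher and 40.8% lower, so a call by itself is common and the size of the difference says more. In order of their mean log2 level the members ran Adgre1, Sirpa, Lyz2, Mpeg1, Cd84, Cd68, Cd200r1, Adgre5, Adgre4 and Lyz1. Between neighbours in that order, the 3 libraries had the same sign for 5 of 9 steps. These were Sirpa over Lyz2, by 2.46 ± 0.35 on the log2 scale (SD, n = 3), Cd84 over Cd68 by 1.87 ± 0.84, Cd68 over Cd200r1 by 1.90 ± 0.83, Adgre5 over Adgre4 by 2.67 ± 0.86 and Adgre4 over Lyz1 by 2.39 ± 0.91. Each has p = 0.25 in an exact two-sided sign-flip test (adjusted p = 0.45 over the 9 steps), the smallest p that 3 libraries allow. The sizes depend on the scale while the signs held. Adgre4 over Lyz1, which has 1 or 2 counts, was 3.13 with a pseudocount of 0.01 and 0.85 with a pseudocount of 1. Without division by length, Cd84 over Cd68 was 3.39, Cd68 over Cd200r1 was 0.80, Adgre5 over Adgre4 was 1.66 and Adgre4 over Lyz1 was 3.93. The other neighbours, Adgre1 and Sirpa, Lyz2 and Mpeg1, Mpeg1 and Cd84, and Cd200r1 and Adgre5, overlapped in range and changed order between libraries.

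**Figure D1:**
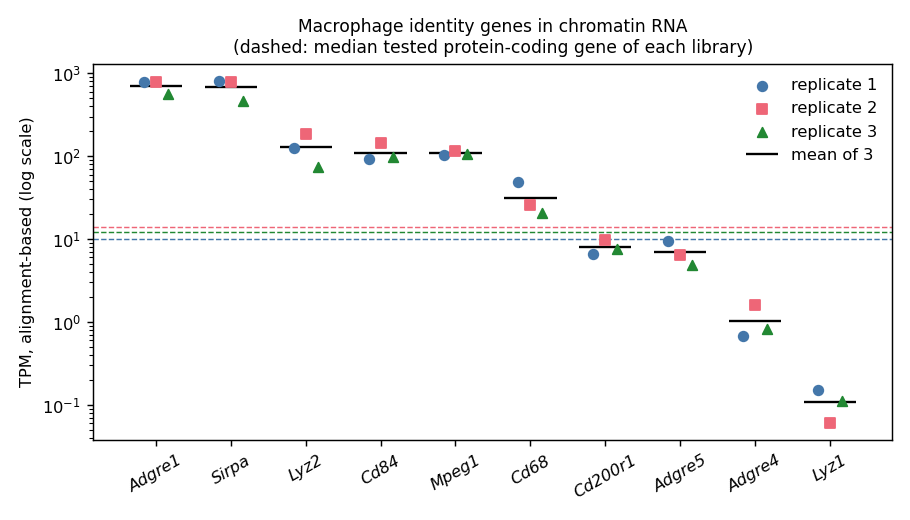
TPM of each of the 10 genes on a log axis, with 1 point per library, a bar at the mean of 3 and dashed lines at the median tested gene of each library. Adgre1 and Sirpa lie at 458 to 811 TPM, 4 genes lie between the median gene and 187 TPM, and Lyz1 lies at 0.15 TPM or lower in each library.

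Lyz2 (ENSMUSG00000069516.8, chromosome 10, 117277331 to 117282321, minus strand, build mm10) was well above the typical gene and Lyz1 (ENSMUSG00000069515.6, 117287797 to 117292868, same strand) was at the limit of detection. Lyz2 had 125, 187 and 74.7 TPM in replicates 1, 2 and 3, from 1789, 3087 and 1367 counts. Replicate 2 was highest and replicate 3 lowest, and all 3 were above the median gene, by 3.33 ± 0.24 on the log2 scale (SE; limma, adjusted p = 1.13e-05). Lyz1 had 0.15, 0.06 and 0.11 TPM, from 2, 1 and 2 counts, which is under the floor of 3 counts used here for detection. The read-based tables gave it 3, 5 and 4 counts, at or just above that floor.

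Both genes have 4 exons and a single annotated isoform, and their transcripts are close enough that reads can be assigned to the wrong copy. The coding sequences, without the stop codon, are 444 bases long in each and match at 422 positions, or 95.05%. Of the words of 31 bases in the Lyz1 transcript, 34.2% also occur in Lyz2, and of words of 100 bases 2.06% do. The first 150 coding bases are shown because they hold 14 of the 22 differences, by which reads of Lyz1 and Lyz2 can be told apart. Capitals mark the positions that differ. The stretches join parts of more than 1 exon, within 117291180 to 117292838 for Lyz1 and 117280792 to 117282242 for Lyz2 (chromosome 10, minus strand, GENCODE M21 on mm10).
Lyz1 coding start: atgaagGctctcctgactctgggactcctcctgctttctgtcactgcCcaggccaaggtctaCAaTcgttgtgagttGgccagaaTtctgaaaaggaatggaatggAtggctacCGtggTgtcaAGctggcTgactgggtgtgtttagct
Lyz2 coding start: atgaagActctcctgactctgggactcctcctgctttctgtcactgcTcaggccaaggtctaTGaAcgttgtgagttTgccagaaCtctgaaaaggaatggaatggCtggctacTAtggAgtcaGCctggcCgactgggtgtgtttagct
The assignment left almost nothing to Lyz1. Its share of the counts of both genes was 0.112% in replicate 1 (95% Clopper-Pearson interval 0.0135% to 0.403%), 0.0324% in replicate 2 (0.00082% to 0.18%) and 0.146% in replicate 3 (0.0177% to 0.527%). In the read-based quantification the shares were 0.104%, 0.1% and 0.204%. The intervals cover counting error only and overlap between libraries. All 5 Paneth cell markers had 0 alignment-based counts in all 3 libraries.

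The start regions of the pair are less alike than their coding sequences. Windows from 250 to 51 bases before each RefSeq start (GRCm38.p6) are shown because nearly all lysozyme counts were assigned to Lyz2. Capitals mark bases that differ or have no partner in the alignment. The Lyz1 window is chr10:117292919-117293118 and the Lyz2 window chr10:117282323-117282522, both on the minus strand.
Lyz1 upstream: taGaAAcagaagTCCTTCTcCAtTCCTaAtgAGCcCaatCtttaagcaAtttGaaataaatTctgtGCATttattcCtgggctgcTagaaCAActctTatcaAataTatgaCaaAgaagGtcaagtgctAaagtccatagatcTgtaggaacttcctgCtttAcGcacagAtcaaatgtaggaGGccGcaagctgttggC
Lyz2 upstream: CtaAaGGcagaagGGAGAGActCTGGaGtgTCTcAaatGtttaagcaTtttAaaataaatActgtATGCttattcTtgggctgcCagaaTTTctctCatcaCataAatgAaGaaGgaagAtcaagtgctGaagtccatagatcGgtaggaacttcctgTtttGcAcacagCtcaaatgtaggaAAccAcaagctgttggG
They match at 150 of 202 aligned positions, or 74.3%. Both hold ACTTCCT, whose reverse complement AGGAAGT is a core recognised by ETS factors such as PU.1, beginning at base 151 of the window. Searched on both strands, these letters occur in 5.67% of 32544 distinct RefSeq windows of the same 200 bases. RefSeq windows were at hand for 6 of the 10 members, and among these only Lyz1 and Lyz2 hold the letters. A match of letters is a description of the sequence, and it is present in both copies, the one with nearly all counts and the other.

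Because a long-lived mRNA can be abundant in the cell with little synthesis, Lyz2 was set beside 12 genes generally regarded as having long-lived mRNAs and 12 regarded as having short-lived ones. Stability itself was not measured here. All 12 long-lived genes were called above the median gene, with Fth1 (ferritin heavy chain) at 1086 ± 363 TPM and Actb (beta-actin) at 670 ± 156 as the highest and Tpt1 at 29.97 ± 1.4 as the lowest. Of the 12 short-lived genes, 5 were called above it, 4 below and 3 neither. Tnf, at 440 ± 23.8 TPM, and the NF-kappaB inhibitor gene Nfkbia, at 291 ± 37.4, were the highest and Egr1, an immediate-early transcription factor gene, was the lowest at 1.82 ± 0.43.

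The list medians on the log2(TPM + 0.1) scale were 7.63 ± 0.22 for the long-lived and 3.89 ± 0.08 for the short-lived genes (SD, n = 3). The difference was 3.74 ± 0.28 with the same sign in 3 of 3 libraries (exact two-sided sign-flip test, p = 0.25, the smallest possible). Both lists were chosen by hand with earlier results of these data known. The test therefore speaks only to how repeatable their difference was over libraries, and not to mRNA stability. Lyz2 lay 0.65, 0.30 and 1.19 below the long-lived median in replicates 1, 2 and 3 and 3.14, 3.69 and 2.25 above the short-lived median. By mean TPM, 8 of the 12 long-lived genes were higher than Lyz2 and 4 lower, while 2 of the 12 short-lived genes, Tnf and Nfkbia, were higher. Adgre1 and Sirpa were higher than all 12 short-lived genes and than 11 of the 12 long-lived ones, with only Fth1 above them. That order rests on short isoforms, described below. With isoforms of at least 1000 bases only, Adgre1 at 383 TPM and Sirpa at 291 lay below Tnf, for which all isoforms were kept. Cd68 lay below 11 of the 12 long-lived genes. Ranked by mean TPM among the 9245 tested genes, Lyz2 was 391, Adgre1 was 19 and Sirpa was 22. The last 2 were 58 and 98 without their shorter isoforms, ranked among other genes that kept all of theirs.

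**Figure D2:**
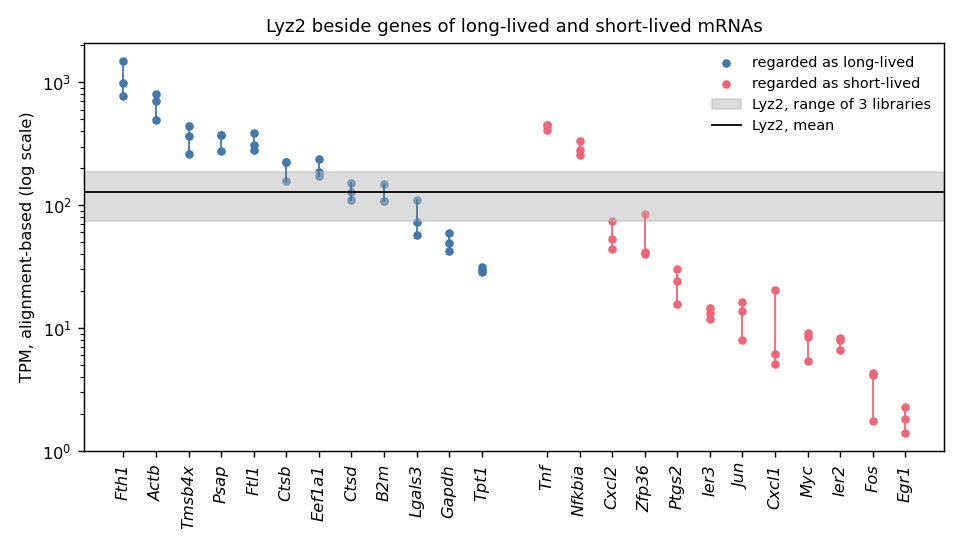
TPM on a log axis of 12 genes regarded as having long-lived mRNAs and 12 regarded as short-lived, with 1 point per library and a line over their range, beside the range and mean of Lyz2. The band of Lyz2, 74.7 to 187 TPM, overlaps the middle of the long-lived list and lies below Tnf and Nfkbia.

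Cd68 (ENSMUSG00000018774.13, chromosome 11, 69664213 to 69666153, minus strand) was modest, and relative to library size it was the least repeatable tested member. It had 48.5, 25.97 and 20.4 TPM. Replicate 1 was the high library, and the counts of 638, 380 and 316 were highest there although replicate 1 was the shallowest library. Scaled to depth as CPM (counts relative to library size after TMM normalisation) Cd68 stood at 60.1, 21.6 and 18.8, and its SD of 0.90 on the log2 scale exceeded that of 99.4% of tested genes, against a median of 0.245. It was 1.31 ± 0.30 (SE) above the median gene (limma, adjusted p = 0.00428), and without replicate 1 the difference was 0.93 (adjusted p = 0.00183). Without division by length it was 0.37 above (limma, adjusted p = 0.346). Cd68 is a short gene of 1.941 kb. Eif4a1, a translation factor gene on the same strand, ends 782 bases before Cd68 starts and had 182, 287 and 201 TPM, lowest in the library in which Cd68 was highest. Whether input, which was largest in replicate 1, has a part in this was not tested.

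Mpeg1 (ENSMUSG00000046805.10, chromosome 19, 12460779 to 12465283, plus strand) was the steadiest of the abundant members. It had 104, 115 and 107 TPM, with no library apart, and an SD of 0.14 in log2 CPM, and 23.3% of tested genes had a lower one. It was 3.18 ± 0.16 (SE) above the median gene (limma, adjusted p = 3.17e-06). Its 2 exons fill 96.2% of the gene, so for Mpeg1 a spliced and an unspliced transcript are nearly the same in length, whereas exons fill 2.59% of Adgre1. Of the LAMP relatives of Cd68, Lamp2 at 80.9 ± 18.7 TPM and Lamp1 at 60.7 ± 4.28 were called above the median gene, and Lamp5 had 0 alignment-based counts and 0.69 ± 0.45 TPM read-based. Prf1, the perforin of cytotoxic lymphocytes and a relative of Mpeg1, likewise had 0 alignment-based counts and 0.22 ± 0.21 TPM read-based.

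Adgre1 (ENSMUSG00000004730.15, chromosome 17, 57358691 to 57483527, plus strand) was the highest of the 10 by mean, and the way its reads were divided among isoforms differed sharply between libraries. It had 781, 783 and 560 TPM from 12400, 24848 and 19764 counts, and was 5.87 ± 0.19 (SE) above the median gene on the log2 scale, a 58.5-fold difference (limma, adjusted p = 1.34e-06). In CPM, which ignores length, it stood at 1169, 1414 and 1177. Replicates 1 and 2 were level in TPM although replicate 1 was lower in CPM.

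The annotation gives 5 Adgre1 isoforms. Adgre1-201 and Adgre1-202 run the whole gene, and Adgre1-203, Adgre1-204 and Adgre1-205 hold only exons of the 5′ part, ending by position 57413757. These 5′ isoforms took 28.9% of the gene's counts in replicate 1 and 2.42% and 2.22% in replicates 2 and 3. The read-based tables gave 21.4%, 4.04% and 3.23%, so replicate 1 was apart in both quantifications. Adgre1-205 alone held 24.4% in replicate 1 and 0.762% and 0.481% in the others. Since the 5′ isoforms are short, each count in them adds more TPM, and the gene's mean effective length was 1295 bases in replicate 1 against 2039 and 2051.

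With isoforms of at least 1000 bases only, a setting chosen after these shares were seen, Adgre1 had 239, 531 and 380 TPM, a mean of 383 ± 146. Replicate 1 thereby went from level with the highest library to the lowest, and the gene's rank from 19 to 58 of 9245. In that rank the other genes kept all their isoforms. The full-length pair also differed. Adgre1-202 keeps 87 bases near the 3′ end of the transcript, at chr17:57483168-57483254, that Adgre1-201 splices out. Of the counts of this pair, Adgre1-202 held 32.8%, 61.6% and 71.8% in replicates 1, 2 and 3 (read-based 25.5%, 56.8% and 66.3%). Replicate 1 was again low. It had the largest RNA input and the lowest depth, and their part was not tested.

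**Figure D3:**
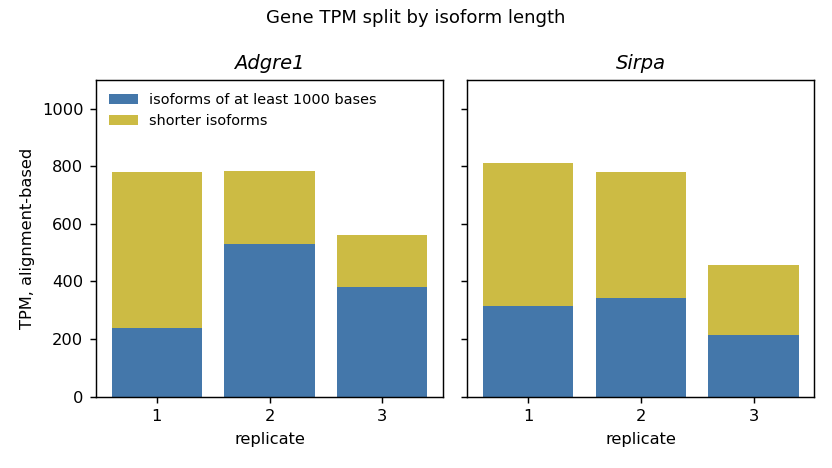
TPM of Adgre1 and Sirpa in each library, stacked as isoforms of at least 1000 bases and shorter isoforms, on a linear axis from 0. Shorter isoforms make up most of the Adgre1 bar in replicate 1 only, and over 50% of the Sirpa bar in all 3 libraries.

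The relatives of Adgre1 were far lower. Adgre5 (ENSMUSG00000002885.14, chromosome 8, minus strand) had 9.44, 6.35 and 4.88 TPM, 0.83 ± 0.25 (SE) below the median gene (limma, adjusted p = 0.0163). Its 3 isoforms annotated with a retained intron held 26.6%, 13.3% and 11.4% of its counts, highest in replicate 1, and 31.1% of 5967 tested genes with such an isoform had a lower mean share. Adgre5 overlaps Ddx39, on the opposite strand, by 3642 bases, and no source used here says whether counting was stranded, so the split of reads in the overlap is uncertain. Adgre4 (ENSMUSG00000032915.6, chromosome 17, 55749984 to 55853662) had 0.68, 1.59 and 0.81 TPM from 28, 80 and 45 counts, all assigned to 1 isoform with 17 exons and 3491 exon bases. By alignment it was therefore above the floor of 3 counts in every library, unlike Lyz1, but only replicate 2 passed 1 TPM. Of the ligands of CD97, Cd55 had 14.1 ± 3.24 TPM, not called different from the median gene, and Thy1 was at 0 in 2 of 3 libraries of the alignment-based tables but at 14.7 ± 1.65 TPM in the read-based ones.

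Sirpa (ENSMUSG00000037902.18, chromosome 2, 129592835 to 129632228, plus strand) was level with Adgre1. It had 811, 779 and 458 TPM, lowest in replicate 3, and was 5.79 ± 0.22 (SE) above the median gene, a 55.3-fold difference (limma, adjusted p = 1.61e-06). In CPM it stood at 1618, 1227 and 870, and its SD exceeded that of 84% of tested genes. One of its 14 isoforms, Sirpa-212, is annotated as a retained intron. It held 11.0%, 11.2% and 9.83% of the counts, alike in the 3 libraries, and 38.6%, 51.8% and 46.6% of the TPM, because it is only 642 bases long. By count share, 20.8% of the 5967 genes with a retained-intron isoform were lower, and the median gene had 31.2%.

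Most of Sirpa-212 is intron, with 518 bases of it directly before an exon of 25 bases. The end of that intron and the exon are shown because this junction is what tells the unspliced form from the spliced one. Capitals mark the exon (chr2:129621143-129621227, plus strand, GENCODE M21).
Sirpa-212: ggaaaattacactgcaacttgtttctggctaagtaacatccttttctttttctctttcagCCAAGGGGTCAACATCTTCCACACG
With isoforms of at least 1000 bases only, Sirpa had 314, 344 and 214 TPM, a mean of 291 ± 68.4, against which the mean over all isoforms was 2.35 times higher. Adgre1 was then lower than Sirpa in replicate 1, by 0.39 on the log2 scale, and higher in replicates 2 and 3, by 0.62 and 0.83, so the order of the pair stayed unsettled. Of the SIRP relatives, Sirpb1a, Sirpb1b and Sirpb1c were at 0.15 to 0.77 TPM by mean. Their read-based means were 0.36, 2.02 and 0.90 TPM. Cd47, the ligand, had 62.5 ± 10.4 TPM and was called above the median gene, as were Ptpn6 (SHP-1), the phosphatase the receptor recruits, at 158 ± 40.9, and the adaptor gene Skap2 at 126 ± 29.5. Ptpn11 (SHP-2) had 11.2 ± 1.24 and was not called.

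Cd84 (ENSMUSG00000038147.13, chromosome 1, 171839697 to 171890718, plus strand) was in the same range as Lyz2 and Mpeg1. It had 91.2, 144 and 96.6 TPM, highest in replicate 2, and was 3.18 ± 0.16 (SE) above the median gene (limma, adjusted p = 3.25e-06). About as many of its counts were assigned to an isoform that ends within an intron as to the full one. Cd84-203 has 2 exons, the last of which runs 2962 bases into what the full-length Cd84-205 treats as intron, and it held 44.7%, 50.4% and 55.4% of counts. Cd84-205, with 9 exons, held 44.1%, 45.0% and 41.6%. The annotation calls Cd84-203 protein-coding, not retained intron, and it was picked out after these shares were seen. Reads of unspliced Cd84 RNA would fall on the same intron bases. A truncated transcript and an unspliced one cannot be told apart here. The exon end is shown with the start of the read-through, because here Cd84-203 runs on into what Cd84-205 treats as intron. The 2 isoforms also start at different positions. Capitals mark the exon shared with Cd84-205, and the lower-case bases are the stretch annotated as coding after it (chr1:171852096-171852176, plus strand).
Cd84-203: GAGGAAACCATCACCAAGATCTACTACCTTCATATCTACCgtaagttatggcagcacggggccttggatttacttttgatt

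Other SLAM-family receptors were also present. Slamf7 had 311 ± 23.8 TPM, higher than Cd84, and Ly9 and Cd48 had 57.5 ± 5.31 and 56.1 ± 6.67, all called above the median gene. Slamf1 at 3.83 ± 1.29, Cd244a at 3.40 ± 0.18 and Slamf9 at 8.75 ± 1.61 were called below it. Slamf8 at 13.4 ± 1.24 was not called, and Slamf6 at 1.02 ± 0.46 was not tested. The adaptor gene Sh2d1a (SAP), known from lymphocytes, had 0 alignment-based counts and 0.63 ± 0.55 TPM read-based, and Sh2d1b1 (EAT-2) had 0.14 ± 0.06 TPM.

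Cd200r1 (ENSMUSG00000022667.18, chromosome 16, 44765736 to 44794978, plus strand) was expressed at a low and repeatable level. It had 6.60, 9.65 and 7.49 TPM, 0.60 ± 0.15 (SE) below the median gene (limma, adjusted p = 0.00732). In CPM it stood at 16.6, 17.7 and 15.8, and only 8.85% of tested genes had a lower SD. Most of its counts lay on Cd200r1-203, an isoform annotated for nonsense-mediated decay, at 59.3%, 60.3% and 59.0%. That isoform has 1456 bases that the coding isoform Cd200r1-201 treats as intron. Cd200r1-201 held 40.7%, 39.7% and 41.0% of counts. By TPM the longer Cd200r1-203 held 49.2%, 49.7% and 48.5%, and by read-based counts 67.1%, 73.3% and 72.9%. Reads of unspliced Cd200r1 RNA would fall on the same intron bases and cannot be told apart from Cd200r1-203 here. The ligand gene Cd200 had 10.7, 2.65 and 6.83 TPM, lowest in replicate 2, and was called below the median gene (limma, adjusted p = 0.0482). Among the downstream adaptors Dok1 and Dok2 had 15.5 ± 3.70 and 10.1 ± 3.10 TPM, neither called, and Rasa1 had 50.3 ± 21.4, called above. Cd200r4, a paired activating receptor, had 9.44 ± 2.02 and was not called.

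The calls of Cd200r1 and Adgre5 below the median gene rest on which genes define the median and on which libraries are kept. With a minimum of 0.5 TPM, Cd200r1 was 0.36 below it (adjusted p = 0.0671) and Adgre5 0.59 below (adjusted p = 0.0712). With any gene that had a count, a much larger set, Cd200r1 was 0.96 above the median gene (adjusted p = 0.00263) and Adgre5 0.73 above (adjusted p = 0.0603). Without replicate 3, Cd200r1 was 0.52 below (adjusted p = 0.0826) and Adgre5 0.56 below (adjusted p = 0.0999), and without replicate 2 Cd200r1 was 0.61 below (adjusted p = 0.0583; limma throughout).

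**Figure D4:**
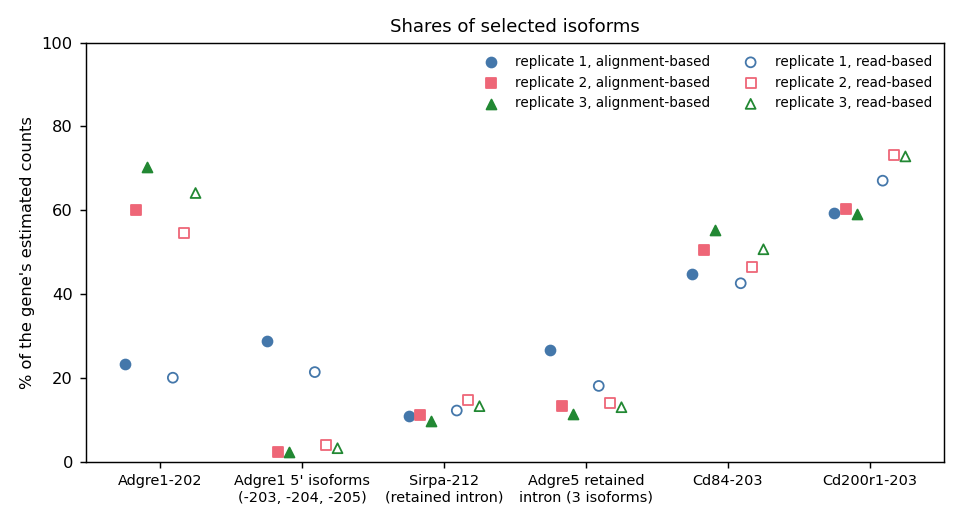
Share of a gene's estimated counts held by selected isoforms in each library, with filled symbols for the alignment-based and open symbols for the read-based quantification. Replicate 1 lies apart for Adgre1-202 and for the 5′ isoforms of Adgre1 in both, while the shares of Sirpa-212 lie between 9.83% and 14.8% throughout.

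Over the wider families, 10 of 26 relatives of the members reached 1 TPM in every library. Of these 5 were called above the median gene, 3 below and 2 neither, and 8 of the 26 had 0 alignment-based counts in every library. Of 12 ligands and signalling partners 9 reached it, with 4 above, 1 below and 4 neither. Of the 15 other macrophage genes 11 were called above the median gene.

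The authors deposited a second quantification of the same reads. Mpeg1 was the member that differed most between the 2 when levels were centred, and Sirpa when they were not. After centring both on the median of the 9245 tested genes, the alignment-based level was higher for 6 of 8 tested members and lower for 0 (limma, adjusted p under 0.05), where 38.0% of all tested genes were higher and 20.0% lower. Mpeg1 differed by 0.64, 1.04 and 1.04 on the log2 scale in replicates 1, 2 and 3, a mean of 0.91 (adjusted p = 0.00399), larger in size than for 91.8% of tested genes. Lyz2 differed by 0.33, 0.52 and 0.70, a mean of 0.52 (adjusted p = 0.00997).

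The direction rests on the centring for most members. The tested genes were chosen in the alignment-based tables, and their median was 0.57, 0.48 and 0.56 higher on the log2 scale in the read-based tables. Without centring, Mpeg1 was higher by alignment in 3 of 3 libraries, by a mean of 0.37, and the other 7 members were lower by mean, from -0.43 for Sirpa to -0.02 for Lyz2. With each quantification centred on its own genes of at least 1 TPM, 11344 in the read-based tables, the means were 0.47 for Mpeg1 and 0.08 for Lyz2, and the other 6 were below 0. These centrings were added after the first result was seen. With the first centring, Adgre1, Cd68, Cd84 and Cd200r1 were called higher by 0.29 to 0.33, under the median size of 0.366 over all tested genes, and each turned negative under both others. The number of called members was 2 without replicate 2 and 1 without replicate 3.

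**Figure D5:**
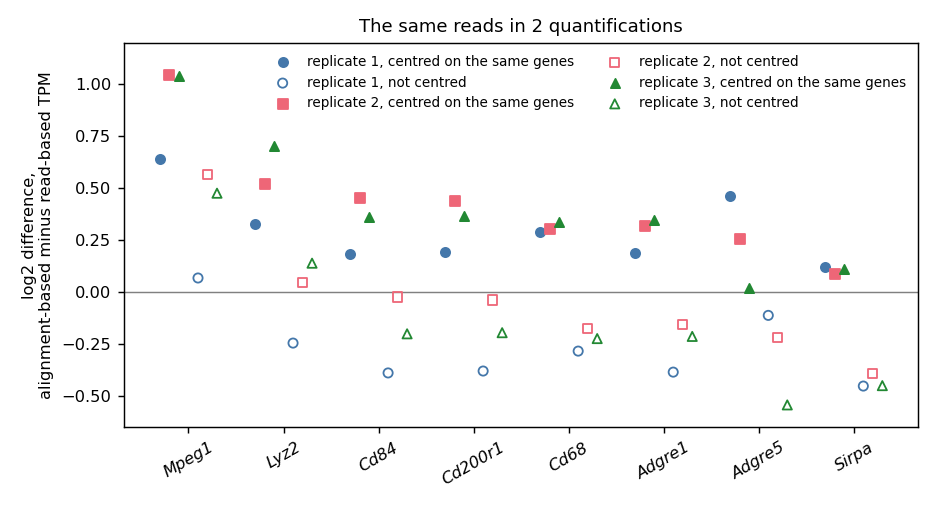
Difference of the alignment-based and the read-based level of each tested member in log2 units, with 1 point per library, filled after centring on the same 9245 genes and open without centring. Mpeg1 lies above 0 in every library under both, while Adgre1, Cd68, Cd84, Cd200r1, Adgre5 and Sirpa lie above 0 when centred and below 0 when not.

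The tested genes nearest in level over the 3 libraries, by root mean square difference of log2(TPM + 0.1), were found for the 3 best-known markers. For Adgre1 they were Actb, Rasa4 and Syk, at distances of 0.13 each. For Lyz2 they were Themis2, Coro1a and Rapgef2, at 0.203, 0.237 and 0.28. For Cd68 they were Ddit3, Tec and Dusp1, at 0.103, 0.14 and 0.158. Dusp1 had 51.2, 22.5 and 22.7 TPM and Ddit3 44.5, 27.1 and 22.1. Both were picked for likeness to Cd68 over these same libraries, so a high replicate 1, as in Cd68, follows from the choice. With 3 libraries of 1 condition such a likeness is a description of levels only.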

How the data were processed

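Chromatin-fraction RNA of 3 mouse BMDM libraries was analysed from the tables the authors deposited. Per the file headers, one quantification gives expected counts and TPM per gene and isoform in the columns RSEM writes, with posterior SD and TPM interval bounds that were not used. The authors' other quantification gives estimated counts and TPM per isoform in the columns kallisto writes. Per the deposited notes, the first derives from alignments to the transcriptome (here alignment-based) and the second from the reads directly (read-based), on mm10 with GENCODE M21. Versions, settings and strand use were not given in the sources used here. TPM are shares of a library, so abundant RNAs lower the rest. Of 81881 gene rows, 55536 matched GENCODE M21, and unnamed and spike-in rows, left out of tests, held 1.87%, 0.39% and 0.52% of counts. Read-based totals were 18806319, 31394979 and 30481399.

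Levels were tested on log2(TPM + 0.1) minus the library median over protein-coding genes of at least 1 TPM in every library, with an intercept-only model (limma 3.58.1, R 4.3.3) and adjustment over 9245 genes. In simulated data 80% of genes set 4-fold higher and 30% of genes set 2-fold higher were called, with 0.0221% of unchanged genes. There 9045 of 9245 genes were unchanged, whereas in the data 40.6% were called higher and 40.8% lower. The simulated rates therefore need not hold for the data. Folds are on the log2(TPM + 0.1) scale. CPM used edgeR 4.0.16 (TMM), and an alternative used DESeq2 1.42.0 size factors. No 2 libraries agreed within sampling noise (chi-square of 23.8 to 45.9 per degree of freedom). Sequences came from GENCODE M21 and RefSeq and were aligned with Biopython. Alternatives changed the pseudocount, filter, quantification, scaling and library set. Named are all members, genes that bind or signal for a member, and nearest genes for 3 members. Of the relatives, partners, long-lived, short-lived and other macrophage lists, the lowest and the 2 highest genes by mean level are also named. Further family members, genome neighbours and single marker genes are named outside this rule, after their values were seen. Members and lists were chosen with earlier results of these data known.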

Additional observations from a re-analysis of the deposited data

How the results depend on the processing

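Of the comparisons that carry the text, the number of members above the median gene, the difference of the long-lived and short-lived lists and the Lyz1 share of lysozyme counts moved by less than 1.5 times or kept their side of the threshold under the alternatives run for them. The number of members above was 5 to 7 and the list difference 2.99 to 4.60. The number below the median gene was 1 with a minimum of 0.5 TPM and 0 to 2 when a library was left out. At 0.5 TPM neither Adgre5 nor Cd200r1 was called, and the 1 member below was Adgre4, which that minimum admits. With no filter beyond a count, the 2 members below were Adgre4 and Lyz1. The number of members whose quantifications differed was 1 to 6 when a library was left out. Adgre5 and Cd200r1 moved to 0.73 and 0.96 above the median gene with no filter beyond a count, since the median then falls, and Cd68 to 2.87 above it. Cd200r1 over Adgre5 was 0.043 to 0.60 when a library was left out and 0.70 without division by length. Differences between neighbours that changed sign were Adgre1 over Sirpa, at -0.10 in the read-based tables and -0.023 to 0.15 when a library was left out, Mpeg1 over Cd84, at -0.57 in the read-based tables and -0.090 to 0.17 when a library was left out, and Lyz2 over Mpeg1, at -1.76 without division by length and -0.13 to 0.49 when a library was left out. The difference of alignment-based and read-based level turned negative without centring for Adgre1 (-0.25), Adgre5 (-0.29), Cd68 (-0.23), Lyz2 (-0.020), Sirpa (-0.43), Cd200r1 (-0.20) and Cd84 (-0.20), and with each quantification centred on its own genes for Adgre1 (-0.15), Adgre5 (-0.19), Cd68 (-0.12), Sirpa (-0.33), Cd200r1 (-0.10) and Cd84 (-0.10). Without division by length Cd68 was 0.37 above the median gene (adjusted p = 0.346). With isoforms of at least 1000 bases only, Adgre5 had 3.04 TPM. The retained-intron share of Adgre5 was 50.2% by TPM. For the sign changes between neighbours the cause was not tested. No paired analysis was possible because all 3 libraries belong to 1 group. Depth limits Lyz1, whose counts are under the floor of 3 by alignment and 3 to 5 by reads, and leaves the intervals of its share wide.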

Other observations

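Among the partners and relatives of the members, some genes near 0 in the alignment-based tables were not so in the read-based ones. Thy1, a ligand of CD97 and a T cell and stromal marker, had 0.00, 0.15 and 0.00 TPM by alignment and 16.4, 14.5 and 13.1 by reads in replicates 1, 2 and 3. Cd3d, a subunit of the T cell receptor complex, had 0.00, 0.05 and 0.00 against 14.5, 14.6 and 13.3, and Cd200r3, of the CD200 receptor family, had 0.02, 0.02 and 0.08 against 2.16, 3.64 and 2.98. The read-based values were alike in the 3 libraries. These genes were picked out after their values were seen.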
